A study of Mus musculus with 6 samples.

Results

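The NRF2 antioxidant programme was followed in RAW264.7 cells through 10 genes chosen by name from the 54532 genes of the deposited tables. They are the regulators Nfe2l2, Keap1 and Sqstm1 and the targets Gclc, Gclm, Gsr, Txnrd1, Prdx1, Srxn1 and Nqo1. RAW264.7 is a mouse macrophage-like tumour line that grows in culture. RNA was sequenced from 3 libraries labelled ERMAP shRNA, whose genotype label is ERMAP Knockdown and whose treatment label is shRNA, and from 3 control libraries, whose genotype label is WT and which carry no treatment label. ERMAP is a membrane protein of the butyrophilin family, and the study asked which genes differ once it is knocked down. All 6 libraries come from this single line, and the lentivirus with the ERMAP hairpin is named in the protocol text of every sample, so the labels leave unsettled whether the control cells received a virus. The sources used here give no hairpin sequence, no non-targeting virus and no time after transduction. Nothing in the labels ties replicates to separate cultures, so the p-values reflect library-to-library spread, possibly technical.

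NRF2, the product of Nfe2l2, is a transcription factor that pairs with small MAF proteins and binds antioxidant response elements in DNA. In resting cells KEAP1 holds NRF2 for ubiquitination by a CUL3 ligase, and NRF2 is degraded. Oxidants and electrophiles modify cysteines of KEAP1, NRF2 then accumulates, and genes for glutathione synthesis, thioredoxin recycling and quinone reduction are transcribed. The protein encoded by Sqstm1, p62, is an autophagy receptor that can sequester KEAP1. NRF2 is controlled largely at the level of protein stability, so its mRNA is not a measure of its activity, and its targets are read instead. In macrophages NRF2 is known for limiting oxidative damage and for restraining inflammatory cytokine genes.

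Summed counts ranged from 13447021 to 15116705 in the libraries labelled ERMAP shRNA and from 14478988 to 16602734 in control libraries, and the low-count filter left 12491 genes to test. Ermap itself was counted 10, 21 and 14 times in the libraries labelled ERMAP shRNA, against 12, 12 and 3 times in control libraries. Lower Ermap mRNA was therefore not seen under the knockdown label (log2 fold change 0.81, 95% interval -0.39 to 2.03, edgeR adjusted p = 0.929). Without control replicate 1 the value was 1.12 (95% interval -0.05 to 2.31, edgeR adjusted p = 0.332). These counts are near the floor, so a fall or rise of Ermap is poorly resolved. The 7 macrophage markers summed to 6705 to 6823 CPM (counts scaled to library size) in the libraries labelled ERMAP shRNA and to 6754 to 7042 CPM in control libraries. Markers of T cells, B cells, neutrophils, fibroblasts, epithelial and erythroid cells each summed to at most 0.298 CPM in the libraries labelled ERMAP shRNA and 0.759 CPM in control libraries, and 17 of those 22 genes had no count in any library. Control replicate 1 stood apart: mitochondrial genes took 1.71% to 2.18% of counts in the libraries labelled ERMAP shRNA, and 3.69% in control replicate 1 against 1.87% and 1.89% in the other control libraries. For the tested members, the value without that library is given too. It is also given wherever leaving that library out turns a sign, ends a call or moves a fitted value by over 1.5 times. Nqo1 did not pass the filter without that library either, and its counts are given per library.

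Of the 10 genes, 9 were well expressed in these cells and Nqo1 was close to silent. Levels between genes are compared in the authors' FPKM, which divide by gene length. Prdx1, a peroxiredoxin that reduces hydrogen peroxide, was the most abundant at 210.1 ± 15.1 FPKM in the libraries labelled ERMAP shRNA and 226.6 ± 72.1 FPKM in control libraries (mean ± SD, n = 3 each). Its mean FPKM over the 6 libraries exceeded that of 99.2% of the protein-coding genes in the table. Sqstm1 followed with a mean of 74.9 FPKM over the 6 libraries, then Gsr with 48.2, Nfe2l2 with 38.4, Txnrd1 with 37.2, Keap1 with 27.4, Gclc with 27.2, Srxn1 with 14.7 and Gclm with 10.5 FPKM. Gclm, the least abundant of these, still exceeded 79.1% of protein-coding genes. Nqo1, a quinone reductase that is widely used as a readout of NRF2, had a mean of 0.165 FPKM, 63.8-fold below Gclm. In bulk RNA, fewer cells with a transcript and less of it per cell cannot be told apart.

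**Figure D1:**
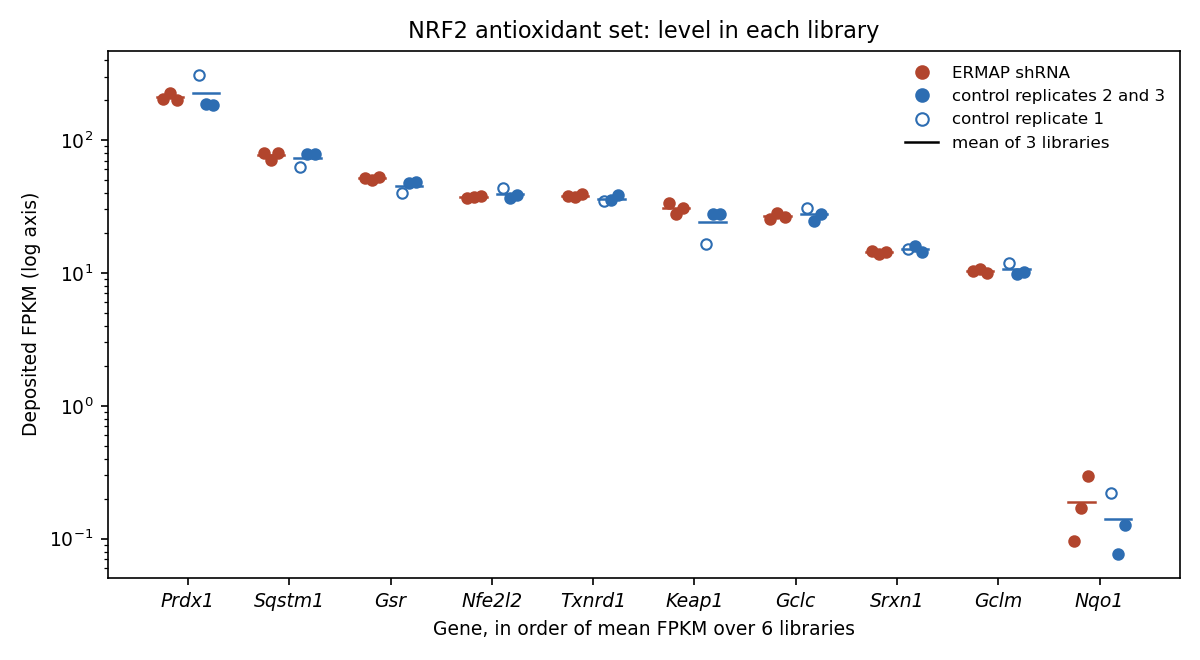
Deposited FPKM (log axis) of the 10 genes in each library, in order of their mean over 6 libraries, with libraries labelled ERMAP shRNA left of control libraries. Points are libraries, the open circle is control replicate 1 and bars are means of 3; Nqo1 lies between 0.0769 and 0.299 FPKM, far below the other 9 genes.

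Some neighbours in that order could not be separated. Nfe2l2 and Txnrd1 differed by 1.03-fold in mean FPKM, and Nfe2l2 was the higher of this pair in 2 of 6 libraries. Keap1 and Gclc differed by 1.01-fold, with Keap1 the higher in 4 of 6. Gsr exceeded Nfe2l2 in 5 of 6 libraries and their ranges overlapped. The ranges of all other neighbours did not overlap over the 6 libraries.

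Promoter sequences from RefSeq (GRCm38.p6, the mm10 assembly) show where letters of the antioxidant response element lie close to the start of these genes. The windows hold 250 bases before and 50 bases after a gene's start, and 8 of the 10 genes matched one, with 3 windows for Txnrd1; the start is that of RefSeq and can differ from the start in the files. The core was searched on both strands in its forms TGACNNNGC and TGAGNNNGC, which can overlap the AP-1 motifs TGACTCA and TGAGTCA. At least 1 match lies in a window of 5 of the 8 genes, Srxn1, Prdx1, Gclm, Txnrd1 and Nfe2l2, or in 5 of their 10 windows. The other listed genes described further on had a match in 34 of 77 genes, or 40 of 106 windows, and 27.8% of all 32851 windows held one. Each match is shown 5′ to 3′ on its own strand with its core in capitals and flanking bases in lower case, and the coordinates are those of the capitals.
Srxn1, chr2:152105366-152105374, minus strand, 158 bases before the start: agaggaTGAGTCGGCtctcag
Srxn1, chr2:152105479-152105487, plus strand, 45 bases before the start: tcacccTGAGTCAGCggccgg
Srxn1, chr2:152105552-152105560, minus strand, 28 bases after the start: tcactcTGACCTAGCtgccca
Prdx1, chr4:116685466-116685474, minus strand, 133 bases before the start: gggggaTGACTCAGCgctttc
Prdx1, chr4:116685614-116685622, minus strand, 15 bases after the start: gagccgTGAGAACGCaggaag
Gclm, chr3:122245423-122245431, minus strand, 134 bases before the start: gagagtTGACGGTGCgcccgg
Txnrd1, chr10:82859114-82859122, minus strand, 92 bases before the start: tcagaaTGACAAAGCaaaaat
Nfe2l2, chr2:75704895-75704903, minus strand, 240 bases before the start: cccaccTGACTCCGCcatgcc
The Srxn1 match 45 bases before the start and the Prdx1 match 133 bases before the start overlap an AP-1 motif, and the other 6 do not. A match of these letters is a description and shows no binding.

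The windows of Srxn1 and Prdx1, which held the most matches among these genes, are shown beside that of Nqo1, the member that was nearly silent, in capitals where either form of the core matches on either strand.
Srxn1, chr2:152105274-152105573, plus strand: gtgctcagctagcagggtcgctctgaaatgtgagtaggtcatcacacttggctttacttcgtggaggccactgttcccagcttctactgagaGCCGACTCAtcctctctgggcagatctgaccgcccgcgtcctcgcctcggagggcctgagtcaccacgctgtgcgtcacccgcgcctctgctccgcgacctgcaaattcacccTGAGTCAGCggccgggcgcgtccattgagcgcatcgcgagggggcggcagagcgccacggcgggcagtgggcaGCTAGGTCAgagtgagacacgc
Prdx1, chr4:116685349-116685648, plus strand: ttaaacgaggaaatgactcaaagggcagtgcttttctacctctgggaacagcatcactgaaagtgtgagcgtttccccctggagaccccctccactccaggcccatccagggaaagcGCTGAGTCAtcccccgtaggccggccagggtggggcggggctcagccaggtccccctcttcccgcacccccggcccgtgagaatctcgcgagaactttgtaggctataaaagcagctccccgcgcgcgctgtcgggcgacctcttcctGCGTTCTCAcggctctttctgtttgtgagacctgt
Nqo1, chr8:107403156-107403455, minus strand: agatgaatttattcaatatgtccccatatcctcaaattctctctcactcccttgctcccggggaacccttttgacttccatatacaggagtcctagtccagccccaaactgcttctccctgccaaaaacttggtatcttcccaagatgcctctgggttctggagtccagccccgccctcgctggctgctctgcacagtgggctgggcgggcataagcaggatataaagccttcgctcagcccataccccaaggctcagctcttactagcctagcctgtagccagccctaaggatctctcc
Srxn1 holds 3 matches, and 0.630% of all windows hold at least 3. Prdx1 holds 2, and 4.68% of all windows hold at least 2. Nqo1 holds none in this window, and the windows of Keap1 and Sqstm1 hold none, which says only that these letters are absent from these stretches.

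None of the 3 regulators passed the test in either direction. Levels between groups are given as CPM scaled by TMM (trimmed mean of M-values) factors. Nfe2l2 (minus strand, chr2:75675513-75704641, mm10), the factor itself, had 140.2, 140.8 and 145.3 CPM in the libraries labelled ERMAP shRNA, against 168, 139 and 146 CPM in control replicates 1, 2 and 3. The groups overlapped, and control replicate 1 was the highest of the 6. Its log2 fold change came to -0.09 (SE 0.10, 95% interval -0.32 to 0.14, edgeR adjusted p = 0.939), and -0.0090 without control replicate 1 (95% interval -0.15 to 0.13).

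Keap1 (minus strand, chr9:21229730-21239361), the adaptor that marks NRF2 for destruction, had the largest fitted difference of the tested members with all 6 libraries and did not pass the test. The largest was that of Prdx1 without control replicate 1. Keap1 had 159, 131 and 145 CPM in the libraries labelled ERMAP shRNA, against 79.0, 132 and 131 CPM in control replicates 1, 2 and 3. The groups overlapped, and control replicate 1 lay far below the other 5 libraries. The log2 fold change of Keap1 was 0.35 (SE 0.20, 95% interval -0.11 to 0.80, edgeR adjusted p = 0.904). Without control replicate 1 it was 0.14 (95% interval -0.02 to 0.29, edgeR adjusted p = 0.403), more than 1.5 times smaller. With offsets for GC content it was 0.29 (95% interval 0.12 to 0.45, edgeR adjusted p = 0.0719). An antisense gene, Gm16754, overlaps Keap1 with 94 to 156 counts per library, against 1144 to 2198 for Keap1, and the sources used here do not say whether counting used strand.

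Sqstm1 (minus strand, chr11:50199366-50210827) had 271, 237 and 268 CPM in the libraries labelled ERMAP shRNA, against 213, 265.1 and 262.8 CPM in control replicates 1, 2 and 3. The groups overlapped, with control replicate 1 the lowest. Sqstm1 had a log2 fold change of 0.07 (SE 0.12, 95% interval -0.20 to 0.33, edgeR adjusted p = 0.951), and without control replicate 1 the sign turned, to -0.04 (edgeR adjusted p = 0.856). Mrnip, on the opposite strand, shares 583 bases with a Sqstm1 transcript and had 36 to 75 counts.

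The glutathione genes did not pass the test in either direction. Gclc and Gclm encode the catalytic and the modifier subunit of glutamate-cysteine ligase, which makes the rate-limiting step of glutathione synthesis. Gclc (plus strand, chr9:77754535-77794485) had 96.1, 106 and 100.2 CPM in the libraries labelled ERMAP shRNA, against 118, 93.6 and 104 CPM in control replicates 1, 2 and 3. Gclm (plus strand, chr3:122245557-122270732) had 65.8, 68.1 and 63.2 CPM in the libraries labelled ERMAP shRNA, against 75.7, 62.2 and 64.3 CPM in control replicates 1, 2 and 3. In both genes the libraries labelled ERMAP shRNA lay inside the control range, whose top was control replicate 1. The log2 fold change of Gclc was -0.06 (95% interval -0.32 to 0.19) and that of Gclm -0.04 (95% interval -0.29 to 0.21), with edgeR adjusted p of 0.951 and 0.964. Without control replicate 1 both signs turned, to 0.02 for Gclc and 0.05 for Gclm.

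Gsr (plus strand, chr8:33652523-33698163), glutathione reductase, which returns oxidised glutathione to its reduced form with NADPH, was the single member whose groups did not overlap. It had 144, 137 and 145 CPM in the libraries labelled ERMAP shRNA, against 111, 131 and 134 CPM in control replicates 1, 2 and 3. Every library labelled ERMAP shRNA exceeded every control library, as in 7.76% of the tested genes; a further 6.46% were lower without overlap, 14.2% in all. The log2 fold change of Gsr was 0.18 (SE 0.10, 95% interval -0.05 to 0.42, edgeR adjusted p = 0.901). It was 0.10 without control replicate 1 (edgeR adjusted p = 0.53), more than 1.5 times smaller, and 0.17 with GC offsets (95% interval 0.02 to 0.33, edgeR adjusted p = 0.299).

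In the thioredoxin branch, too, no gene passed the test. Txnrd1 (plus strand, chr10:82833951-82897712), the selenoprotein that reduces thioredoxin, had 269.8, 264 and 281 CPM in the libraries labelled ERMAP shRNA, against 249, 251 and 274 CPM in control replicates 1, 2 and 3. Its groups overlapped through control replicate 3, with a log2 fold change of 0.07 (SE 0.09, 95% interval -0.13 to 0.27, edgeR adjusted p = 0.943). The value of Txnrd1 was 0.04 without control replicate 1 (edgeR adjusted p = 0.814), more than 1.5 times smaller. Srxn1 (plus strand, chr2:152105516-152111376), sulfiredoxin, which repairs overoxidised peroxiredoxins, had 41.8, 39.3 and 40.3 CPM in the libraries labelled ERMAP shRNA, against 42.9, 44.98 and 40.3 CPM in control replicates 1, 2 and 3. The groups overlapped in this gene of the 3-match promoter, which had a log2 fold change of -0.08 (SE 0.10, 95% interval -0.31 to 0.15, edgeR adjusted p = 0.945), and the same -0.08 without control replicate 1. In Srxn1 and Txnrd1 control replicate 1 was close to the other control libraries.

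Prdx1 (plus strand, chr4:116685544-116700822) varied most in control libraries among the well-expressed members. It had 627, 693 and 607 CPM in the libraries labelled ERMAP shRNA, against 954, 575 and 558 CPM in control replicates 1, 2 and 3. All 3 libraries labelled ERMAP shRNA lay below control replicate 1 and above the other 2 control libraries. Its log2 fold change came to -0.11 (SE 0.20, 95% interval -0.59 to 0.36, edgeR adjusted p = 0.952). Without control replicate 1 the sign turned and the value was 0.18 (95% interval 0.04 to 0.31, edgeR adjusted p = 0.158). Reads of processed pseudogenes could be shared with Prdx1. Gm21399 aligned at 98.3% identity over 597 bases and had 57 to 105 counts per library, against 8400 to 13812 for Prdx1, and Gm7204 had at most 2.

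Nqo1 (minus strand, chr8:107388225-107403206) was counted 2, 4 and 7 times in the libraries labelled ERMAP shRNA, against 5, 2 and 3 times in control replicates 1, 2 and 3, and did not pass the filter on low counts. The summed counts were 13 in the libraries labelled ERMAP shRNA and 10 in control libraries, a ratio of 1.38 per library size (exact 95% interval 0.558 to 3.51, which covers counting error only). At these counts a rise or a fall of Nqo1 within that interval is not resolved, and the interval is not a limit of detection. With no filter on low counts the log2 fold change was 0.43 (95% interval -1.38 to 2.27, edgeR adjusted p = 0.938). In that fit 0 of 10 members were called, against 0.839% of 22641 genes, 0.698% higher and 0.141% lower.

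Read together, 0 of the 9 tested members were called in either direction (edgeR, adjusted p under 0.05), where 1.14% of the 12491 tested genes were. At an unadjusted p under 0.05 edgeR also gave 0 of 9, where 464 of the 12491 tested genes were higher and 380 lower. DESeq2 called 0 of 9, against 2.19% of tested genes (1.62% higher and 0.568% lower). With limma-voom 0 of 9 were called, against 127 of the 12491 genes higher and 16 lower. Limma-trend on FPKM also called 0 of 9. Over all 12491 genes it called 124 higher and 18 lower with a pseudocount of 1, and 119 and 16 with 0.1. The median log2 fold change of the 9 was -0.04 with all 6 libraries and 0.04 without control replicate 1, against -0.0073 and -0.0055 over all tested genes. Their median absolute value was 0.08 with all 6 libraries, against 0.13 over all tested genes. Without control replicate 1 it was 0.05, against 0.12. All tested genes include genes of lower level than these 9, and level was not matched. With all 6 libraries, all 9 intervals lay inside a 2-fold change in either direction, as did those of 82.4% of tested genes. Their outer bounds were -0.59 for Prdx1 and 0.80 for Keap1 on the log2 scale. Without control replicate 1, 0 of 9 members were called while 4.86% of the 12793 genes tested there were, and the outer bounds of the 9 narrowed to -0.27 for Srxn1 and 0.31 for Prdx1. All 9 intervals then lay inside a 2-fold change, as did those of 83.0% of genes, and 1 of 9, Prdx1, had an unadjusted p under 0.05. With GC offsets 0 of 9 were called, against 3.32% of tested genes, and 2 of 9, Keap1 and Gsr, had an unadjusted p under 0.05. The share over all genes at an unadjusted p under 0.05 is not given for the fits without control replicate 1 and with GC offsets. The counts of 1 of 9 and 2 of 9 can therefore not be weighed, and the 464 and 380 belong to another fit.

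**Figure D2:**
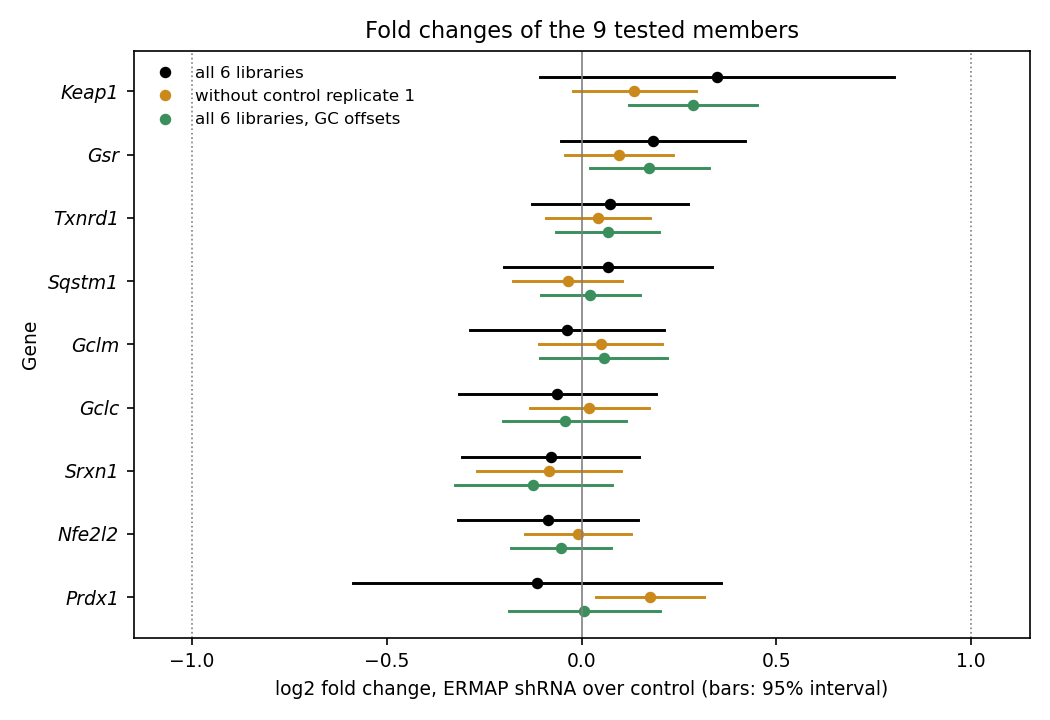
log2 fold change of ERMAP shRNA over control for the 9 tested members with 95% intervals, from all 6 libraries (black), without control replicate 1 (orange) and with GC offsets (green). Dotted lines mark a 2-fold change; every interval lies between them, and the orange and green bars of Keap1 and Prdx1 are shorter than the black ones.

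The coefficient of variation over 3 libraries was 7.07% in the libraries labelled ERMAP shRNA and 32.2% in control libraries for Prdx1. For Keap1 it was 9.66% in the libraries labelled ERMAP shRNA and 26.6% in control libraries. The wide control spread of both genes rests on control replicate 1, since the other control libraries were close to each other, at 575 and 558 CPM for Prdx1 and 132 and 131 CPM for Keap1. Relative to the mean of the other control libraries, control replicate 1 had a log2 difference of 0.75 for Prdx1, whose longest transcript has a GC content of 42.3%, and -0.74 for Keap1, with 58.0%. Among protein-coding genes within 1 point of the same GC content, the median difference was 0.44 for Prdx1 (828 genes) and -0.54 for Keap1 (746 genes). Prdx1 lay above the 90th percentile of its GC neighbours, which was 0.74, and the other 8 tested members lay between the 10th and 90th percentiles of theirs. GC content moved with the departure of that library, and its part in each member's value was not tested.

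**Figure D3:**
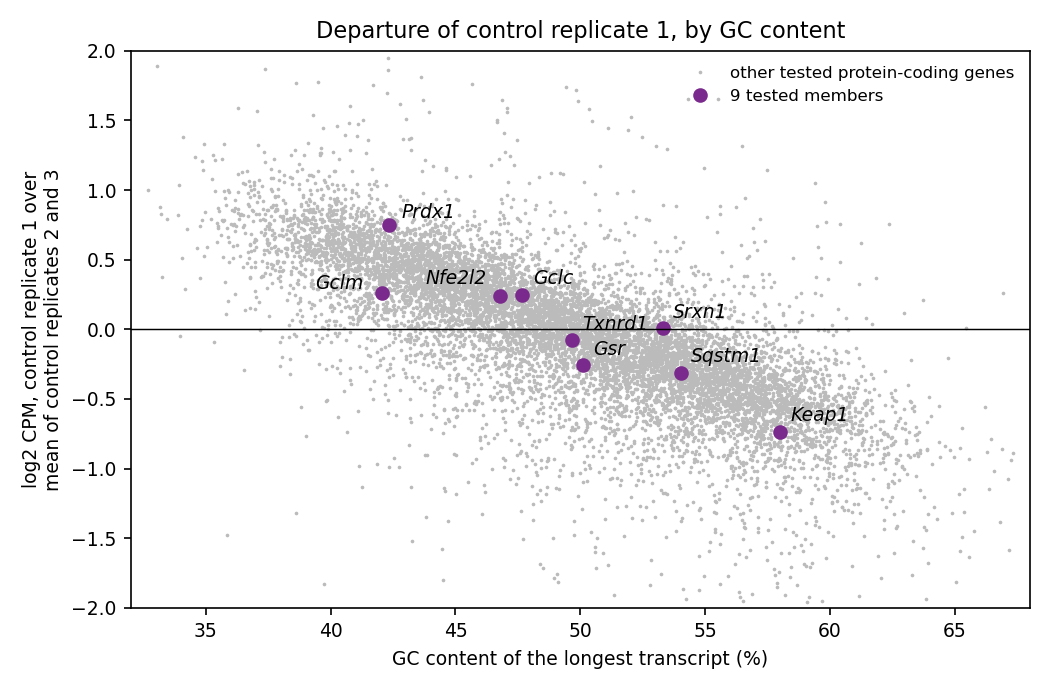
log2 difference of control replicate 1 from the mean of the other control libraries against GC content of the longest transcript, for 10748 tested protein-coding genes (grey; 80 lie outside the axes) and the 9 tested members (purple). The members follow the falling band of the other genes, from Prdx1 at 0.75 to Keap1 at -0.74.

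The profile of Nfe2l2 over the 6 libraries was compared with those of 8636 other protein-coding genes with a mean of at least 10 CPM, by the root mean square difference of log2 CPM centred on each gene's mean. The nearest were Btbd1 (0.012), Pik3r1 (0.015), Grsf1 (0.016), Heca (0.019) and Znrf2 (0.020), against a median of 0.17 over all 8636. Among the members, Gclc (0.051, rank 188 of 8636) and Gclm (0.053, rank 217) were nearest to Nfe2l2 and Keap1 (0.41, rank 8175) was farthest. Many genes outside the set therefore lay nearer to Nfe2l2 than any member. These profiles share the same 6 libraries, control replicate 1 included, so the likeness is a description.

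A further 93 genes of the NRF2 and redox pathways were read from the same test, in 8 lists, and 81 passed the filter on low counts. Of the 81, 0 were called higher and 1 lower, against 1.01% and 0.136% of all tested genes, and their median log2 fold change was 0.0025 (-0.05 without control replicate 1). At an unadjusted p under 0.05, 2 of the 81 were higher and 3 lower, where 464 of all 12491 tested genes were higher and 380 lower. Without control replicate 1 they were 5 and 11 of 82, with Nos2 among the 5. The share over all genes at this unadjusted p is not given for that fit, so the 5 and 11 cannot be weighed. The 464 and 380 belong to the fit with all 6 libraries. Without control replicate 1, 3 of 82 were called higher and 3 lower, against 2.67% and 2.19% of all genes tested there. Nos2, 1 of those called higher, passed the filter there through the group in which it was high, so its call is no support. With GC offsets 2 of 81 were called higher and 2 lower, against 2.16% and 1.16%.

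Mgst2, a microsomal glutathione transferase, was the gene that fell. It had 26.0, 25.1 and 30.4 CPM in the libraries labelled ERMAP shRNA, against 48.1, 42.9 and 42.7 CPM in control replicates 1, 2 and 3. The groups did not overlap, and 6.46% of tested genes were lower without overlap. The log2 fold change of Mgst2 was -0.71 (SE 0.12, edgeR adjusted p = 0.0341). DESeq2 also called it, and it was -0.66 without control replicate 1 (edgeR adjusted p = 6.84e-05). Leaving out any of the other 5 libraries ended the call (edgeR adjusted p 0.0923 to 0.266), as did the replicate block (edgeR adjusted p = 0.192). Its list of 23 quinone, aldehyde and xenobiotic enzymes had 16 tested genes, with a median of -0.15. Akr1b8, an aldo-keto reductase, had 38.6, 39.0 and 45.3 CPM in the libraries labelled ERMAP shRNA, against 49.5, 57.9 and 57.4 CPM in control replicates 1, 2 and 3. The groups of Akr1b8 did not overlap either. Its log2 value was -0.42 (edgeR adjusted p = 0.261). It was called lower without control replicate 1 (-0.50, edgeR adjusted p = 0.000597) and with GC offsets (-0.44, edgeR adjusted p = 0.0121). Akr1a1, with the highest mean FPKM there, stood at 626 ± 26.2 CPM in the libraries labelled ERMAP shRNA and 604 ± 71.2 CPM in control libraries (mean ± SD, n = 3 each). Its log2 fold change was 0.05 with all 6 libraries and -0.04 without control replicate 1. Gstp1, with the largest value, had a log2 fold change of 0.40 (edgeR adjusted p = 0.893), and 0.30 without control replicate 1. Aldh3a1, Aldh1a1, Pir, Gstm2 and Mgst1 had no count in any library, and neither did Ggt1 and Gpx2 of the glutathione list.

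Heme oxygenase, another classical NRF2 target, did not pass the test with all 6 libraries. Hmox1 had 123, 108 and 109.9 CPM in the libraries labelled ERMAP shRNA, against 71.5, 94.5 and 84.8 CPM in control replicates 1, 2 and 3. The groups did not overlap, and 7.76% of tested genes were higher without overlap. The log2 fold change of Hmox1 was 0.44 (SE 0.12, edgeR adjusted p = 0.279). It was called higher without control replicate 1 (0.33, edgeR adjusted p = 0.00838) and with GC offsets (0.41, edgeR adjusted p = 0.00644). Of the 7 heme and iron targets, all tested, 0 were called with all 6 libraries and the median was 0.06. Blvrb, a biliverdin reductase, had 22.8 ± 0.632 CPM in the libraries labelled ERMAP shRNA and 27.5 ± 8.93 CPM in control libraries (mean ± SD, n = 3 each). It was called lower without control replicate 1 (-0.50, edgeR adjusted p = 0.00606) and not with all libraries (-0.27, edgeR adjusted p = 0.937). With GC offsets it was not called either (-0.29, edgeR adjusted p = 0.454). Fth1, the ferritin heavy chain, reached 2624 ± 59.0 CPM in the libraries labelled ERMAP shRNA and 2305 ± 221.5 CPM in control libraries (log2 fold change 0.19, edgeR adjusted p = 0.861). Its groups did not overlap either. The value of Fth1 was 0.11 without control replicate 1 (edgeR adjusted p = 0.39), more than 1.5 times smaller.

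Among 11 producers and scavengers of superoxide and peroxide, 9 were tested and 0 were called with all 6 libraries, with a median of 0.03 that was -0.04 without control replicate 1. Cybb, the catalytic subunit of the phagocyte NADPH oxidase, had 653, 719 and 654 CPM in the libraries labelled ERMAP shRNA, against 609.8, 426 and 503 CPM in control replicates 1, 2 and 3. The groups did not overlap, and 7.76% of tested genes were higher without overlap. Cybb had a log2 value of 0.40 (edgeR adjusted p = 0.489). It was called without control replicate 1 (0.53, edgeR adjusted p = 2.86e-05) and with GC offsets (0.49, edgeR adjusted p = 0.000969). Cyba, its partner in the membrane, had a log2 fold change of 0.13 and Rac2, a GTPase of the same complex, one of -0.08 (edgeR adjusted p 0.949 and 0.948). Cyba turned to -0.10 without control replicate 1, and Rac2 was then -0.16 (edgeR adjusted p = 0.174). Nos2, the inducible nitric oxide synthase, was counted 9, 11 and 8 times in the libraries labelled ERMAP shRNA and never in a control library. Against a floor of 3 counts for all control libraries together, its 28 summed counts give a ratio of 9.89 per library size. That ratio takes the 28 counts as exact and is not a lower bound. Nos2 did not pass the filter with all 6 libraries and was called with no filter (edgeR adjusted p = 0.0161). With 1 library left out it passed the filter, where it did, only through the libraries labelled ERMAP shRNA, so tests there are conditioned on the difference. It was called without control replicate 1 (edgeR adjusted p = 0.00825) and not without control replicate 2 or 3 or ERMAP shRNA replicate 3 (edgeR adjusted p 0.139 to 0.232).

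The remaining 5 lists held 0 genes called by edgeR with all 6 libraries, 0 at an unadjusted p under 0.05 and 0 called by DESeq2. The 11 genes of NRF2 degradation and its partners, all tested, had a median of 0.06, and 0.03 without control replicate 1. Cul3, the scaffold of the ubiquitin ligase that KEAP1 serves, had a log2 fold change of -0.15 with all 6 libraries and 0.19 without control replicate 1. Maff, a small MAF partner, had 0.28 and 0.03 in the same 2 fits, and Nfe2l1, a relative of Nfe2l2, 0.13 and -0.0014. For glutathione synthesis and use, 12 of 14 genes were tested, with a median of -0.03 that was 0.01 without control replicate 1. In that list Gpx1, a glutathione peroxidase, had 0.02 with all 6 libraries and -0.08 without control replicate 1. Chac1, which degrades glutathione, had 0.38 with all 6 libraries and 0.09 without control replicate 1, and Ggct, a gamma-glutamyl cyclotransferase, -0.37 and -0.06. The 12 thioredoxin and peroxiredoxin genes had a median of 0.06 with all 6 libraries and -0.03 without control replicate 1. Prdx5 was at 0.20 with all 6 libraries and 0.03 without control replicate 1, and Txn1 at 0.11 and -0.03. Txnrd2, the mitochondrial thioredoxin reductase, was at -0.21 with all 6 libraries and -0.31 without control replicate 1 (edgeR adjusted p = 0.055 in the second). The 6 suppliers of NADPH had a median of 0.09 (0.05 without control replicate 1), from Me1 at -0.07 to Tkt at 0.13, and both signs turned without control replicate 1 (0.14 and -0.04). Taldo1, the most abundant supplier per length, had 292 ± 13.2 CPM in the libraries labelled ERMAP shRNA and 291 ± 40.6 CPM in control libraries (mean ± SD, n = 3 each), with a log2 value of -0.10 without control replicate 1. Of 9 autophagy receptors and LC3 family genes, relatives of Sqstm1 in function, 8 were tested with a median of -0.08 (-0.12 without control replicate 1). Gabarap had 157 ± 3.51 CPM in the libraries labelled ERMAP shRNA and 168 ± 3.53 CPM in control libraries (mean ± SD, n = 3 each, edgeR adjusted p = 0.937). Gabarap and Tax1bp1 were lower without overlap of the groups, as were 6.46% of tested genes. Tax1bp1 had the lowest log2 fold change with all 6 libraries, -0.25, and Map1lc3a the highest, 0.02. Both ranks rest on control replicate 1: without it Tax1bp1 was -0.08, the highest of the 8, and Map1lc3a was -0.23.

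**Figure D4:**
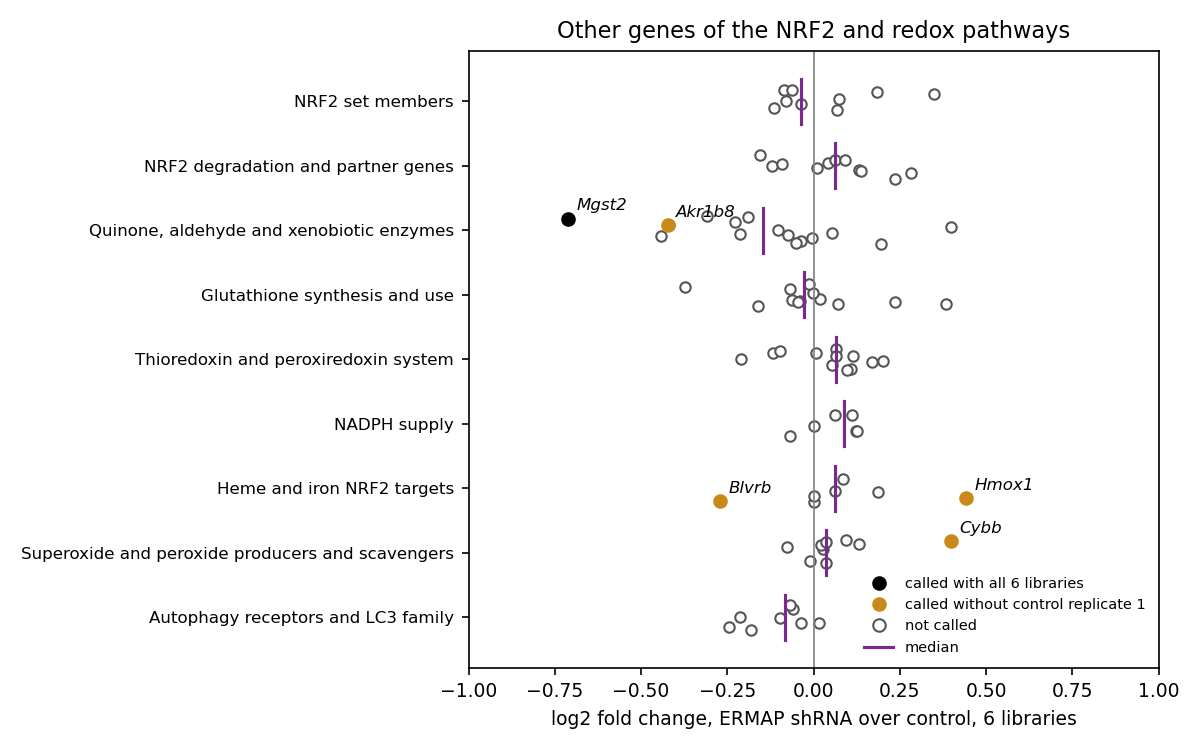
log2 fold change of ERMAP shRNA over control from all 6 libraries for the 9 tested members (top row) and the 81 tested genes of 8 other lists; vertical bars are medians. Mgst2 at -0.71 is the gene called with all 6 libraries (black), and Akr1b8, Blvrb, Hmox1 and Cybb (orange) were called without control replicate 1.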

How the data were processed

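RNA was measured in 6 RAW264.7 libraries. The authors deposited read counts per gene with Ensembl identifiers and mm10 coordinates, FPKM per library and their group means of FPKM. The submitters' processing notes name HISAT2 as a tool and mm10 as the genome build. The sources used here give no counting program, strand setting, annotation release or version. Deposited FPKM equal the count over gene length and 1 constant per library, within -0.15% to 1.20% of its summed count. Column names show the group of a library, and replicate numbers are those of the columns, which could not be tied to single sample titles. In a chi-square test over genes, every pair of replicates differed by more than counting noise.

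Counts were tested with edgeR 4.0.16 (quasi-likelihood, robust; limma 3.58.1, R 4.3.3) over all genes, with TMM factors, filterByExpr at a minimum count of 10 and the Benjamini-Hochberg procedure. Called genes have an adjusted p under 0.05. Intervals are 95% and come from the same model. GC content and copies of members came from GENCODE vM21 transcripts (all 10 members have the same coordinates there), and GC offsets are a lowess curve (span 0.3) per library. The test was also run on simulated data, whose outcome is not given here, so that run lends no support. Alternatives were DESeq2 1.42.0, limma-voom, limma-trend on log2 of FPKM with a pseudocount of 1 or 0.1, other factors, filters and threshold, a replicate block, GC offsets and leaving out each library. The members, lists and alternatives were chosen with earlier results of these data known. Besides the members and Ermap, the text names from each list the gene of highest mean FPKM, called genes, the largest and smallest fold change (mean CPM of at least 1), and up to 3 genes called without control replicate 1 or with GC offsets. Genes with no count in any library and the nearest profiles to Nfe2l2 are also named.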

Additional observations from a re-analysis of the deposited data

How the results depend on the processing

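The count of called members was 0 higher and 0 lower under each alternative run. With the replicate block 81 genes were called higher and 3 lower over all genes, against 126 and 17 without it, and 0 of the other listed genes were called lower, against 1. Deviations of same-numbered libraries from their group means had r of -0.16, -0.33 and 0.23, and those of other pairs ran from -0.31 to 0.40. With 3 libraries per group and control replicate 1 apart, these values cannot settle whether the numbers are a pairing. GC offsets called 270 genes higher and 145 lower, DESeq2 202 and 71, and an adjusted p under 0.01 called 82 and 3. With no filter on low counts 32 genes were lower. On leaving out single libraries, 73 to 342 were higher and 3 to 280 lower, the highest without control replicate 1 and the lowest without ERMAP shRNA replicate 3. Other listed genes called higher, 0 with all libraries, were 1 with no filter (Nos2), 2 with GC offsets and 0 to 3 on leaving out 1 library. Those called lower were 2 with GC offsets, 0 at an adjusted p under 0.01 and 0 to 3 on leaving out 1 library.

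The sign of the log2 fold change turned with GC offsets for Gclm (0.0564), Prdx1 (0.0068), Cul3 (0.0474), Gpx1 (-0.0616), Taldo1 (-0.0365) and Map1lc3a (-0.0736). Taldo1, at 0.0017 with TMM factors, was also -0.0003 with RLE factors and DESeq2 and -0.0084 with upper-quartile factors. On leaving out 1 library, values ran from -0.0354 to 0.12 for Sqstm1, -0.0959 to 0.049 for Gclm, -0.145 to 0.0193 for Gclc and -0.2492 to 0.1752 for Prdx1. They ran from -0.0014 to 0.22 for Nfe2l1, -0.3168 to 0.1862 for Cul3, -0.0436 to 0.1249 for Akr1a1, -0.0253 to 0.1851 for Txn1, -0.0381 to 0.2499 for Tkt, -0.2227 to 0.1359 for Me1, -0.0978 to 0.3046 for Cyba, -0.0753 to 0.1029 for Gpx1, -0.1047 to 0.098 for Taldo1 and -0.2252 to 0.1877 for Map1lc3a. Each of these 14 turned without control replicate 1, and Gpx1, Taldo1 and Map1lc3a also without some library labelled ERMAP shRNA. The cause was not tested, except that a stricter threshold calls fewer genes by construction. The common dispersion was 0.0045 without control replicate 1 and 0.00938 with GC offsets, against 0.0233. Depth limits Nqo1, Nos2 and Ermap, which rest on at most 7, 11 and 21 counts per library.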

Other observations

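The balance between paired members can be read per library in deposited FPKM, which divide by gene length. The catalytic to modifier subunit ratio, Gclc over Gclm, was 2.44, 2.60 and 2.65 in the libraries labelled ERMAP shRNA, against 2.60, 2.52 and 2.71 in control replicates 1, 2 and 3. The groups overlapped, and control replicate 1, where both genes were at their highest, lay within the range of the other libraries. The ratio of Keap1, the repressor, over Nfe2l2 was 0.919, 0.754 and 0.806 in the libraries labelled ERMAP shRNA, against 0.38, 0.769 and 0.725 in control replicates 1, 2 and 3. The low value belongs to control replicate 1 alone, and the other 5 libraries overlap between the groups. The 10 members summed to 494.9, 502 and 491 FPKM in the libraries labelled ERMAP shRNA, against 565, 463 and 465 FPKM in control replicates 1, 2 and 3. Every library labelled ERMAP shRNA lay below control replicate 1 and above the other control libraries. Prdx1 made up 41.3%, 45.2% and 40.5% of that sum in the libraries labelled ERMAP shRNA, against 54.8%, 40.5% and 39.2% in control replicates 1, 2 and 3. These ratios were chosen after the values were seen and were not tested.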
